A study of Homo sapiens with 12 samples.

Results

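2 stable lines of ARPE-19, a long-used human cell line from the retinal pigment epithelium (RPE), were set against each other: a line labelled OSK and a line labelled GSTA4, with 3 libraries each. The comparison was between these 6 of the 12 libraries of the study. It used the 40591 of 60605 lines of the count table that carry a gene name. The letters OSK were taken for OCT4 (gene symbol POU5F1), SOX2 and KLF4, and GSTA4 for glutathione S-transferase alpha 4. The other 6 libraries came from a line carrying GFP, the control open reading frame (ORF), and from cells labelled WT, for which the labels name no ORF. Their levels are given beside the results as background. They also entered the same fit, and so its filter on low counts, its scaling and its estimate of spread. Poly(A) RNA was collected after 4 days of ORF expression. The labels name no promoter or vector and leave unsaid if the 3 libraries of each kind are separate cultures or separate lines. The p-values therefore rest on the spread between libraries of the same group, over all 12, which may be technical. The effect of an ORF and other differences between the lines cannot be told apart.

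POU5F1, SOX2 and KLF4 are transcription factors that, delivered together, can move a differentiated cell toward pluripotency; brief expression is studied as partial reprogramming, in which a cell is meant to keep its identity. GSTA4 is a cytosolic enzyme that joins glutathione to 4-hydroxynonenal, a reactive aldehyde released when membrane lipids are oxidised. The RPE is a pigmented epithelium that recycles visual pigment, takes up shed photoreceptor outer segments and lives under high oxidative load. Both ORFs were candidates for rejuvenation in the study, and the question here is what separates the 2 lines directly.

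The libraries of both lines held 13344775 to 16455864 reads, so a count of 0 allows up to 0.19 to 0.225 CPM (reads per 1e6 reads, the usual CPM unit, after TMM scaling, taking 3 reads as the floor, for counting error only). Reads on genes encoded in mitochondrial DNA made up 6.85% ± 0.0427 of named reads in OSK and 7.73% ± 0.16 in GSTA4 (SD, n = 3 each; exact two-sided permutation p = 0.1, the smallest that 3 against 3 can give). Pearson's r of log2 levels across genes was 0.993 within each line and 0.951 to 0.954 between them, as a description. Of the 12 libraries, GFP replicate 1 stood apart, with reads on 27349 named genes against 19488 to 22073 elsewhere. It enters the test through the filter, the scaling and the shared spread, not as a library of either line. Among the markers of RPE, RPE65 had 22 reads over the 3 OSK libraries and 1 over the 3 GSTA4 libraries, while TYR, PMEL, MITF, OTX2, SERPINF1, KRT8 and KRT18 were well above the floor in both. RLBP1 and BEST1, also chosen as markers, are not reported here. Markers of blood cells summed to 0.127 to 0.285 CPM in OSK and 0 to 0.550 CPM in GSTA4, with 7 and 5 of 10 at 0 reads.

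All 4 forced genes stood where the labels put them. POU5F1 was at 810.1, 764 and 763 CPM in the OSK libraries, on 11385, 12068 and 10850 reads, and at 0, 2 and 0 reads in the GSTA4 libraries. SOX2 was at 633, 623 and 629 CPM in OSK and at 0 reads in each GSTA4 library, at least 3029-fold higher taking 3 reads per library as the floor. KLF4 was at 949, 923 and 912 CPM in OSK and 2.67, 0.675 and 1.38 CPM in GSTA4. GSTA4 was at 396, 420.5 and 431 CPM in the GSTA4 libraries and 17.4, 20.7 and 22.5 CPM in the OSK libraries, a 20.6-fold difference (log2 fold change of OSK over GSTA4 -4.36, SE 0.10). The groups did not overlap for any of the 4, and GFP and WT held means of 8.79 and 5.47 CPM of GSTA4. Counts cannot separate ORF reads from reads of the cell's own copy, and GSTA4 has close relatives in the same gene family.

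Between the lines, 7262 of 15179 genes tested passed an adjusted p of 0.05 (47.8%; edgeR's quasi-likelihood test with Benjamini-Hochberg adjustment over all genes, used for every adjusted p here). Of all genes tested, 24.1% were higher in OSK (3655 genes) and 23.8% were lower (3607). A log2 change of at least 1 was reached by 1084 genes that were higher (7.14%) and 900 that were lower (5.93%). The 3 libraries of one line did not overlap the 3 of the other for 58% of genes. Every count of a gene group below is to be read against these shares, and group medians against the median log2 fold change of all genes tested, -0.01.

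**Figure D1:**
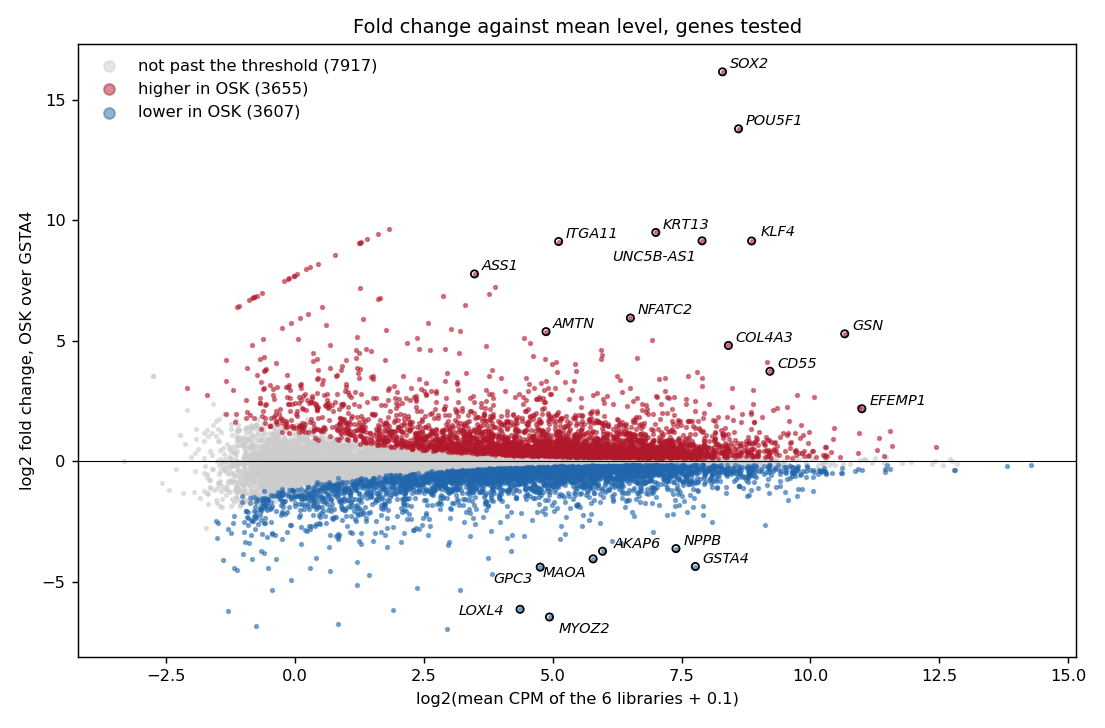
Log2 fold change of OSK over GSTA4 (vertical axis) against log2 of mean CPM + 0.1 over the 6 libraries (horizontal axis) for the 15179 genes tested; red points were higher in OSK (3655), blue points lower (3607), and grey points did not pass. The largest named rises at high levels include SOX2, POU5F1, KRT13 and GSN, and the largest falls MYOZ2, LOXL4 and GSTA4.

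Genes of cell division separated the lines almost without exception. Of 46 tested genes of mitosis and the kinetochore, the structure that ties chromosomes to the spindle, 45 were higher in OSK and none was lower, with a median log2 fold change of 1.51. Many such genes carry a cell cycle element, TTTGAA, near their start, so the promoters of the 4 members with the lowest adjusted p among those whose window holds these letters are shown before the values. Each is the 250 bases before the annotated start (RefSeq, GRCh38.p14, written 5′ to 3′ on the gene's strand), with TTTGAA, or TTCAAA for the other strand, in capitals: MKI67, minus strand, chr10:128126424-128126673; TOP2A, minus strand, chr17:40417897-40418146; KIF23, plus strand, chr15:69414099-69414348; ASPM, minus strand, chr1:197146670-197146919.
MKI67: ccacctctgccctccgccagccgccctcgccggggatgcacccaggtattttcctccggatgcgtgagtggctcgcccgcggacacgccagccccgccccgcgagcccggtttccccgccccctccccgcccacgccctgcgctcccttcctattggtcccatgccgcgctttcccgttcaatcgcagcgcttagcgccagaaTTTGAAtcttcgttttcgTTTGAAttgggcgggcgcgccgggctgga
TOP2A: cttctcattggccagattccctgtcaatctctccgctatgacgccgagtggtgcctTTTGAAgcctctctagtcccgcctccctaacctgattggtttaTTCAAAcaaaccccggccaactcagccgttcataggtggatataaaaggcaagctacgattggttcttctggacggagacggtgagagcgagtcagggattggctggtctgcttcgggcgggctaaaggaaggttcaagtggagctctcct
KIF23: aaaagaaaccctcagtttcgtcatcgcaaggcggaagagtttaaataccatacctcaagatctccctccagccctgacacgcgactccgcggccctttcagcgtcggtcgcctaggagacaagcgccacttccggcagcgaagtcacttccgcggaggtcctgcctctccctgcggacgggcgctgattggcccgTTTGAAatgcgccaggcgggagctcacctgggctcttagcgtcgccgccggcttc
ASPM: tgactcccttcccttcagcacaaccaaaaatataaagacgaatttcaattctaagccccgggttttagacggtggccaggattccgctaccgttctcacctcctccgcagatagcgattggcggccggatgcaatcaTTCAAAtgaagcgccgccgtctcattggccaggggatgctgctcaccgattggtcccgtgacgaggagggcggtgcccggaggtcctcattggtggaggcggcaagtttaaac
Counting the last base before the start as -1, the letters begin at -47 and -29 in MKI67, at -194 and -151 in TOP2A, at -55 in KIF23 and at -113 in ASPM. In windows from 250 bases before to 50 after the start, 28 of 39 mitosis genes with a window held them on either strand (71.8%), against 13.8% of the 11265 tested genes with a window and 15.2% of all 35116 windows. In the genes of DNA replication and the G1/S step, 1 of 37 did (2.7%). Of 42 matches tabulated by position in the mitosis genes, 28 began within 50 bases of the start. A match of letters is a description of the promoter and not a measured site.

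MKI67, the antigen used to count dividing cells, was at 141, 159 and 162 CPM in OSK and 38.2, 45.1 and 45.1 CPM in GSTA4 (log2 fold change 1.85, SE 0.11, adjusted p = 1.62e-11). TOP2A, the topoisomerase that untangles sister chromosomes, was at 106, 118 and 129 CPM against 38.2, 35.8 and 33.1 CPM. KIF23, a kinesin of the dividing cell's midzone, was at 37.1, 43.3 and 44 against 12.1, 12.8 and 15.2 CPM, and FOXM1, the transcription factor of the G2 and M genes, at 38.8, 39.9 and 44.8 against 14.7, 10.3 and 11.5 CPM. In each of these genes the lowest OSK library was more than 2-fold above the highest GSTA4 library. GFP lay between the lines for all 4, with MKI67 at 57.8 CPM, and WT below both, with MKI67 at 10.4 CPM. Taken against the same 3 GFP libraries, the group's median log2 difference was 1.14 in OSK and -0.35 in GSTA4. The exception was PRC1, a crosslinker of spindle microtubules, which did not pass at 1.28, 2.15 and 1.27 and 0.635, 0.976 and 1.38 CPM.

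Genes of DNA replication and the G1/S step followed in the same direction with smaller values: 29 of 43 were higher in OSK and 1 was lower, with a median of 0.60. E2F1, the transcription factor that opens S phase, was at 33.7, 37 and 37.4 CPM in OSK and 8.26, 9.01 and 7.84 CPM in GSTA4 (log2 fold change 2.11, SE 0.11). TK1, thymidine kinase, was at 49.5, 56.6 and 63.2 against 18.7, 15.4 and 14.2 CPM, and RRM2, the ribonucleotide reductase subunit, at 23.8, 32.1 and 29.9 against 11.1, 13.7 and 11.6 CPM. Both lines' libraries stood apart for these genes. In the helicase that unwinds origins, MCM6 was higher (53.9, 62 and 61.3 against 27, 32.8 and 29.6 CPM), while MCM7 was the member that was lower (146, 148 and 146 against 170.3, 162 and 161 CPM, log2 fold change -0.17, adjusted p = 0.0212). The MCM7 call was lost in 5 of 14 alternatives, among them leaving out any 1 OSK library or GSTA4 replicate 1, with edgeR adjusted p up to 0.108.

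Cyclins D, their kinases and inhibitors split, with 5 of 15 higher and 6 lower in OSK (median 0.03). Among the inhibitors, CDKN2C (p18) was at 20.8, 26.9 and 26.9 CPM in OSK against 7.69, 5.78 and 6.67 in GSTA4, and CDKN2B (p15) at 148, 119 and 118 against 57.9, 55.5 and 62.7. The kinase CDK4 was lower in OSK, at 57.5, 52.6 and 56.5 against 87.9, 91.3 and 87.4 CPM. Cyclin CCND2 had 1, 1 and 3 reads in the OSK libraries and 65, 69 and 51 reads in the GSTA4 libraries. So these 2 inhibitors were higher in OSK and the kinase and the cyclin lower, while CDKN1A (p21), also an inhibitor, was lower in OSK, at 146, 159 and 158 against 217, 241 and 241 CPM.

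**Figure D2:**
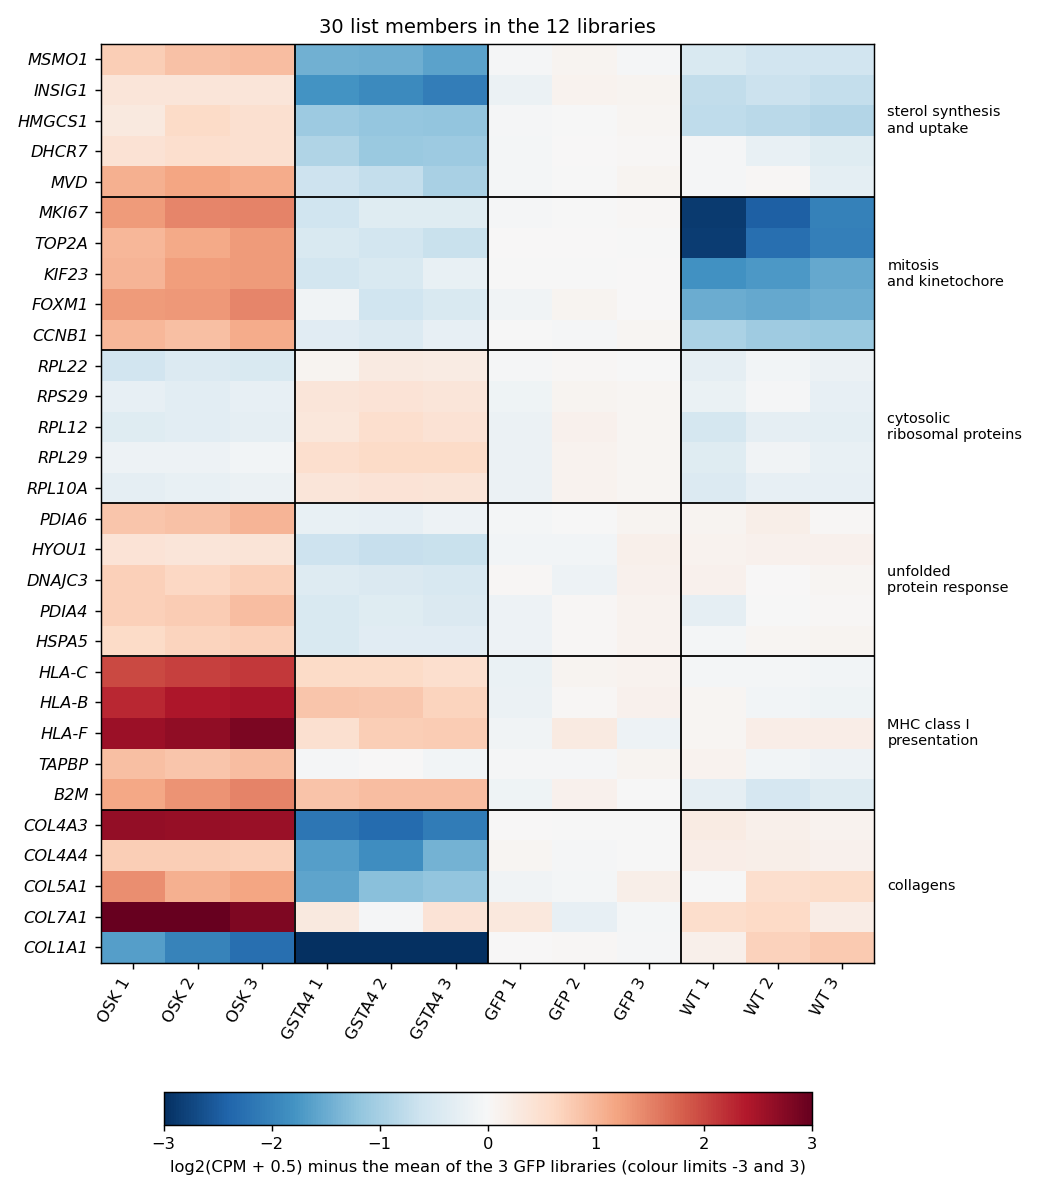
Level of 30 members of 6 gene lists in each of the 12 libraries, as log2(CPM + 0.5) minus the mean of the 3 GFP libraries; red is above GFP, blue below, with colour limits at -3 and 3, and black lines part the groups and the lists. The 5 sterol genes are red in OSK and blue in GSTA4, the 5 mitosis genes are red in OSK and deepest blue in WT, and the 5 MHC class I genes are red in OSK and mostly paler red in GSTA4.

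Sterol synthesis and uptake separated the lines as completely. All 23 tested members were higher in OSK, where the background is 24.1%, with a median log2 fold change of 1.6, and in all 23 the 3 OSK libraries were above the 3 GSTA4 libraries. MSMO1, a methyl sterol oxidase, was at 164, 182 and 187 CPM in OSK and 35.8, 35 and 32.1 CPM in GSTA4, 5.18-fold apart (log2 fold change 2.37, SE 0.071, adjusted p = 2.53e-16). INSIG1, the membrane protein that holds back the sterol sensor, was at 143, 145 and 144 against 31.7, 29.4 and 26.1 CPM. HMGCS1, an early synthase of the pathway, was at 148, 178 and 169 against 56.5, 54 and 52.4 CPM. GFP stood between the lines, at 98.1 CPM for MSMO1 and 112 CPM for INSIG1. Measured from these same GFP libraries, the list's median was 0.62 in OSK and -0.94 in GSTA4.

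Of the factors that switch these genes on, SREBF2 was higher in OSK, at 778, 801 and 804 against 478, 464 and 456 CPM (log2 fold change 0.77, SE 0.061), and SREBF1 did not pass, at 132, 135 and 141 against 141, 137 and 125 CPM. Of 17 members with a promoter window, 0 held TCACNCCAC, a sterol element, on either strand, against 1.51% of tested genes. These letters, not the element in all its forms, were searched, and 17 members are few for so small a share. Of the other letters searched, CCACACCC, a KLF box, was in 4 of the 17 (23.5%), against 4.18% of tested genes. TTTGAA was in 2 (11.8%), against 13.8%, and the octamer and AP-1 letters given below were in 0. None of these shares was tested. Genes of fatty acid synthesis and desaturation leaned the same way, with 13 of 23 higher and 3 lower in OSK (median 0.44). The desaturases FADS2, at 330.0, 368 and 356 against 93.2, 82.7 and 71.3 CPM, FADS1, at 239, 253 and 233 against 82.3, 73.3 and 73.5 CPM, and SCD, at 710.1, 730.2 and 748 against 254, 233 and 215 CPM, were higher, while their relative FADS3 was lower, at 81.2, 80.3 and 76 against 183, 176 and 166 CPM. Targets of LXR, the receptor for excess sterol, had 5 of 13 higher and 3 lower (median 0.04). LPCAT3, which remodels phospholipids, was at 153, 136 and 142 CPM in OSK and 20.2, 18.2 and 19.2 in GSTA4, and APOE, the lipid carrier, was lower in OSK at 2.21, 1.84 and 0.985 against 7.75, 7.21 and 6.12 CPM.

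**Figure D3:**
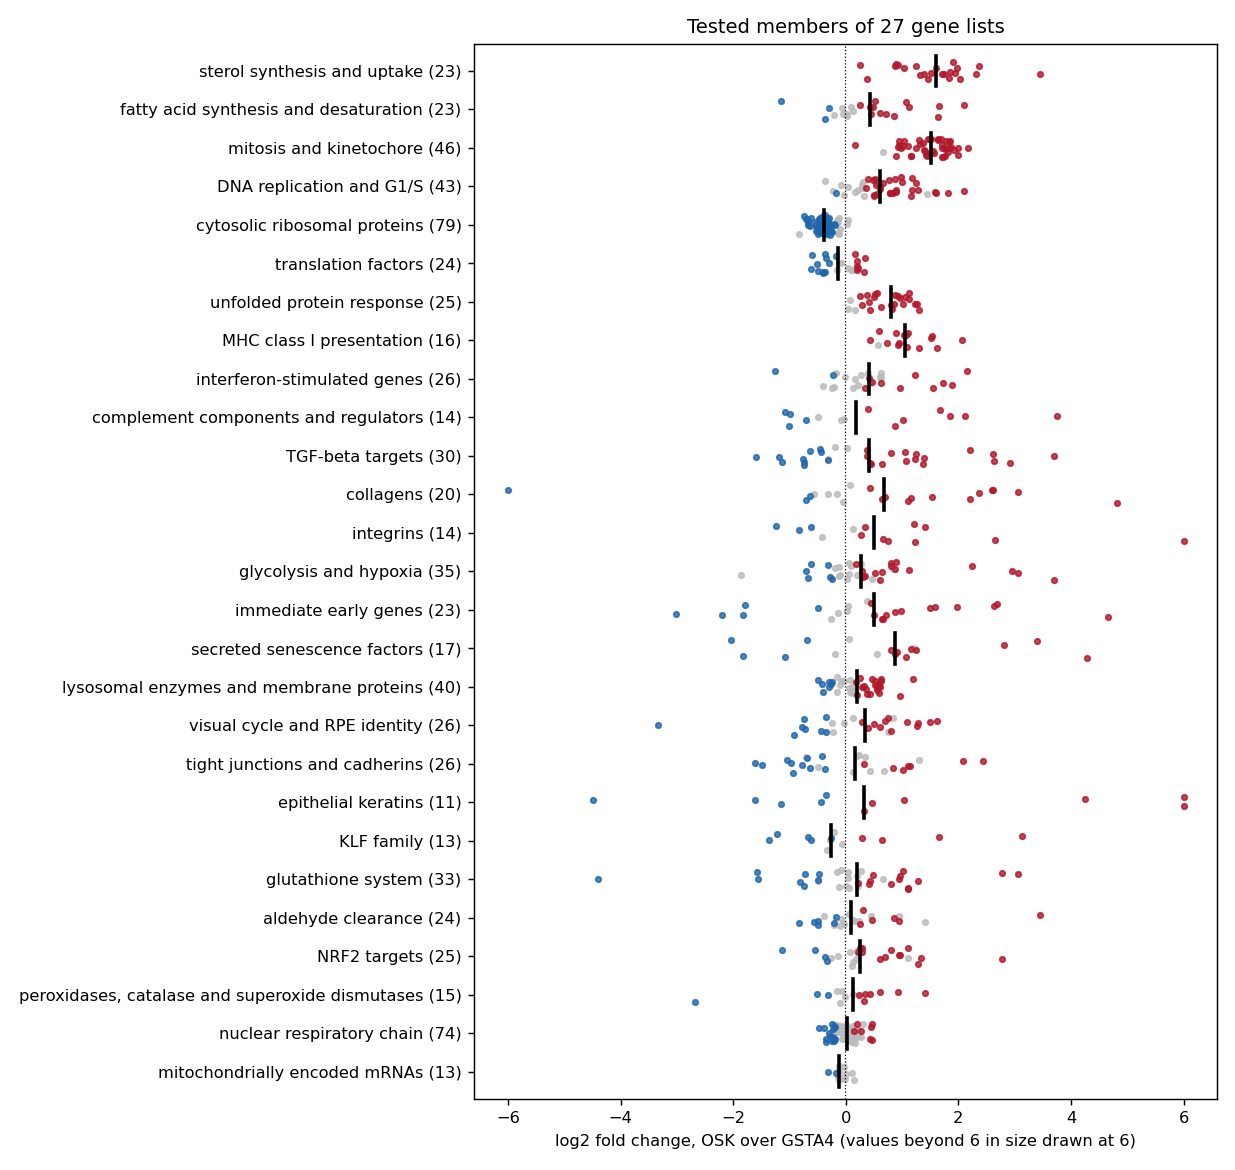
Log2 fold change of OSK over GSTA4 for the tested members of 27 gene lists; each point is a gene (red higher in OSK, blue lower, grey not past the threshold), the black bar is the list's median, the dotted line the median of all genes tested, and values beyond 6 in size are drawn at 6. The sterol, mitosis, MHC class I and unfolded protein response lists lie to the right, at medians of 1.6, 1.51, 1.05 and 0.80, and the ribosomal proteins to the left, at -0.39.

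Ribosomal protein mRNAs lay on the other side. Of 79 cytosolic ribosomal protein genes, 70 were lower in OSK and none was higher, against a background of 23.8%, though the changes were small, with a median of -0.39. RPL22 was at 127, 141 and 137 CPM in OSK and 199.8, 226 and 224 CPM in GSTA4, RPS29 at 161, 154 and 162 against 248, 257 and 247 CPM, and RPL12 at 544, 560.4 and 586 against 895, 989 and 941 CPM. RPL3 was among the 6 largest falls in CPM, at 2355, 2388 and 2438 against 3083, 3330.2 and 3187 CPM (log2 fold change -0.42, SE 0.076). Against GFP the median was -0.17 in OSK and 0.22 in GSTA4. Many of these genes have processed pseudogenes, between which reads may be split.

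Translation factors were mixed, with 7 of 24 higher and 11 lower in OSK (median -0.14). The elongation factor EEF2 was at 6146, 6321 and 6379 CPM in OSK and 7931, 8238 and 8075 in GSTA4. EEF1A1, which delivers tRNA to the ribosome, was at 12988, 13722 and 13916 against 14281, 15988 and 15843, close to the threshold (adjusted p = 0.0453). The EEF1A1 call was lost in 6 of 14 alternatives. Among them was leaving out any 1 OSK library, GSTA4 replicate 2 or GSTA4 replicate 3. EIF2S3, a subunit of the initiation factor that carries the first tRNA, was at 177, 198 and 202 against 269, 301 and 314 CPM. The start codon factor EIF1 moved against them, at 514, 500.3 and 525 CPM in OSK and 395, 410.1 and 417 CPM in GSTA4. The mRNAs encoded in mitochondrial DNA passed in 2 of 13 cases, both lower in OSK: MT-ND1 at 2448, 2515 and 2519 against 2957, 3174 and 3219 CPM and MT-CO1 at 17906, 19111 and 19221 against 20434, 21384 and 21297 CPM. MT-RNR2, a mitochondrial ribosomal RNA, was among the 6 largest falls in CPM, at 6004, 6432 and 6339 against 7433, 8164 and 8153 CPM. The count of mRNAs depended on the settings: it was 8 with library size alone as the scaling and 1 without OSK replicate 1, OSK replicate 2, GSTA4 replicate 2 or GSTA4 replicate 3. Nuclear genes of the respiratory chain had 7 of 74 higher and 15 lower, below the background in both directions, and 8 lower without OSK replicate 1.

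The unfolded protein response, the set of chaperones and folding enzymes that the endoplasmic reticulum raises under load, was higher in OSK in 22 of 25 members and lower in none (median 0.80). PDIA6, a disulfide isomerase, was at 280.2, 289 and 318 CPM in OSK and 133, 132 and 140.5 CPM in GSTA4 (log2 fold change 1.13, SE 0.065, adjusted p = 7.53e-12). HYOU1, a chaperone of the lumen, was at 373, 362 and 366 against 182, 174 and 175 CPM, and DNAJC3, a cochaperone, at 122, 114 and 122 against 56.5, 54.5 and 53.1 CPM. The lines did not overlap in any of these. GFP lay between the lines for HYOU1, at 281 CPM, and for DNAJC3, at 74.5 CPM. Cytosolic heat shock chaperones did not share this direction: 3 of 19 were higher and 8 lower in OSK (median -0.07), with the small chaperone HSPB1 at 59.9, 65 and 77.5 against 147, 143 and 130.1 CPM and HSPA1B, nearly identical to HSPA1A, higher at 69.4, 72.2 and 59 against 46.8, 48.2 and 50.2 CPM.

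Antigen presentation by MHC class I was higher in OSK in 15 of 16 members and lower in none (median 1.05). HLA-C was at 1272, 1334 and 1393 CPM in OSK and 477, 474 and 451 CPM in GSTA4 (log2 fold change 1.51, SE 0.072), HLA-B at 555, 621 and 638 against 204, 201 and 183 CPM, and HLA-F at 50.8, 54 and 60.6 against 11.6, 14 and 14.2 CPM; these genes are alike enough that reads may be shared. TAPBP, which helps load peptides, was at 127, 119.8 and 129 against 65.8, 68.1 and 63.6 CPM. The GFP means of HLA-B and HLA-C, 115 and 322 CPM, were below those of either line, and the list's median against GFP was 1.44 in OSK and 0.55 in GSTA4. Genes stimulated by interferon had 10 of 26 higher and 2 lower in OSK (median 0.41). SAMHD1, which breaks down nucleotides for DNA synthesis, was at 81.3, 68.1 and 89 against 24.6, 23.2 and 24.4 CPM, and IRF7, the regulator of type I interferon genes, was lower in OSK at 15.2, 18.3 and 14.4 against 37.4, 41 and 35.6 CPM.

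Complement genes had 7 of 14 higher and 4 lower in OSK (median 0.17). The highest values belonged to CD55 and CD59, surface proteins that shield a cell from complement. CD55 was at 1118, 1015 and 1186 CPM in OSK and 88.7, 81.8 and 77.4 CPM in GSTA4, 13.4-fold apart (log2 fold change 3.74, SE 0.077, adjusted p = 7.31e-19). CD59 was at 1026, 983 and 1022 against 229.5, 230.1 and 235 CPM. The first proteases of the classical pathway were higher too, C1R at 518, 559 and 487 against 135, 152 and 149 CPM and C1S at 333, 364 and 331 against 98.2, 112 and 111 CPM. CFD (factor D) was lower in OSK, at 0.64, 0.696 and 1.27 against 1.91, 1.65 and 1.93 CPM. The CFD call was lost in 6 of 14 alternatives. Among them was leaving out OSK replicate 1, OSK replicate 2, GSTA4 replicate 1 or GSTA4 replicate 3.

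Matrix and adhesion genes carried some of the largest single differences. Of 20 collagens tested, 12 were higher in OSK and 3 lower (median 0.67). COL4A3, a basement membrane collagen, was at 665, 657 and 648 CPM in OSK and 23.7, 21.4 and 24.8 CPM in GSTA4, 28.1-fold apart (log2 fold change 4.81, SE 0.071, adjusted p = 2.23e-21), with GFP between them at 107 CPM. Its chain partner COL4A4 was at 327, 326 and 319 against 62, 53.4 and 71.8 CPM. COL7A1, of anchoring fibrils, was at 77.7, 55.6 and 44 against 7.37, 5.78 and 7.98 CPM, and COL5A1 at 77.1, 61.3 and 66.3 against 9.28, 11.9 and 12.5 CPM. COL21A1 had 0 reads in each OSK library and 11, 17 and 14 reads in GSTA4, at least 4.78-fold higher in GSTA4 taking 3 reads per library as the floor.

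Integrins, the receptors for matrix, had 9 of 14 higher and 3 lower in OSK (median 0.50). ITGA11, a collagen receptor, was at 87, 55.5 and 64.7 CPM in OSK and had 1, 0 and 4 reads in the GSTA4 libraries; GFP and WT held 129.8, 120.2 and 148 and 153, 225 and 214 CPM. It was thus near 0 in GSTA4 alone among the 4 groups, and below GFP in OSK too. ITGA5, a fibronectin receptor, was at 268, 241 and 259 against 38.1, 44.7 and 39.4 CPM, with GFP at 39.4 CPM, near GSTA4. ITGA3, a laminin receptor, was lower in OSK, at 629, 621 and 643 against 1589, 1445 and 1446 CPM.

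Targets of TGF-beta, the cytokine that drives matrix and contractile genes, had 17 of 30 higher and 10 lower in OSK (median 0.40), but the median was below GFP in both lines, at -0.59 in OSK and -0.99 in GSTA4. LOX, which crosslinks collagen, was at 355, 393 and 493 CPM in OSK against 28.8, 32.6 and 34.1 in GSTA4, and BHLHE40, a transcriptional repressor, at 293, 238 and 239 against 35.4, 34.5 and 32.4. The ligand TGFB2 was lower in OSK, at 81.4, 87.3 and 78.3 against 234, 253 and 262 CPM (log2 fold change -1.6, SE 0.078). Of the secreted senescence factors, 9 of 17 tested were higher and 4 lower in OSK (median 0.88), with 19 further members too low to test. Of these 19, 6 had 0 reads in both lines. Others differed in reads summed over the 3 libraries of OSK and of GSTA4. CXCL8 had 52 and 5, CCL20 47 and 0, IL1B 35 and 1, and CXCL1 11 and 0. AREG went the other way, at 5 and 33, as did CXCL3, at 2 and 8, and CXCL2, at 0 and 3. These reads were not tested. The carriers of insulin-like growth factor IGFBP6, at 169, 181 and 219.8 against 9.21, 8.71 and 11.3 CPM, and IGFBP3, at 130.1, 152 and 152 against 12.5, 13.1 and 15.5 CPM, were higher in OSK, as was PLAUR, the receptor of urokinase, at 25.6, 25.1 and 23.5 against 3.3, 3.0 and 4.2 CPM. Urokinase itself (PLAU) was lower in OSK, at 0.783, 0.317 and 0.492 against 2.35, 1.95 and 2.27 CPM.

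Immediate early genes, the first transcription factors that a stimulus raises, were split within the family: 13 of 23 were higher and 5 lower in OSK (median 0.50). JUNB was at 279, 253 and 260.4 CPM in OSK and 45.2, 41.3 and 41.5 CPM in GSTA4, and FOSL2 at 665, 660.4 and 631 against 162, 169 and 169 CPM. NR4A1, an orphan nuclear receptor, was at 41.3, 36.5 and 33.6 against 5.72, 6.0 and 5.5 CPM. JUN stood the other way, at 50.9, 53.7 and 55.4 CPM in OSK and 248, 244 and 246 CPM in GSTA4 (log2 fold change -2.21, SE 0.082, adjusted p = 6.99e-15), as did EGR1, at 6.69, 8.55 and 9.36 against 56.4, 65 and 78.7 CPM. JUN, JUNB and FOSL2 are parts of AP-1, which binds TGANTCA. These letters were found, on either strand, in the windows of 45 of 263 genes with a rise of at least 2 on the log2 scale (17.1%) and of 17 of 149 with a fall of that size (11.4%), against 6.97% of tested genes. ATGCAAAT, the octamer that POU factors bind, was in 11 of the 263 large rises (4.18%) and 3 of the 149 large falls (2.01%), against 1.82% of tested genes. CCACACCC, a KLF box, was in 20 of the rises (7.60%) and 7 of the falls (4.70%), against 4.18%. The cell cycle element TTTGAA was also above its share, in 54 of the rises (20.5%) and 30 of the falls (20.1%), against 13.8%. The sterol element was in 6 of the rises (2.28%) and 2 of the falls (1.34%), against 1.51%. Over all genes past the threshold the KLF box was in 4.84% of those higher and 4.95% of those lower in OSK.

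**Figure D4:**
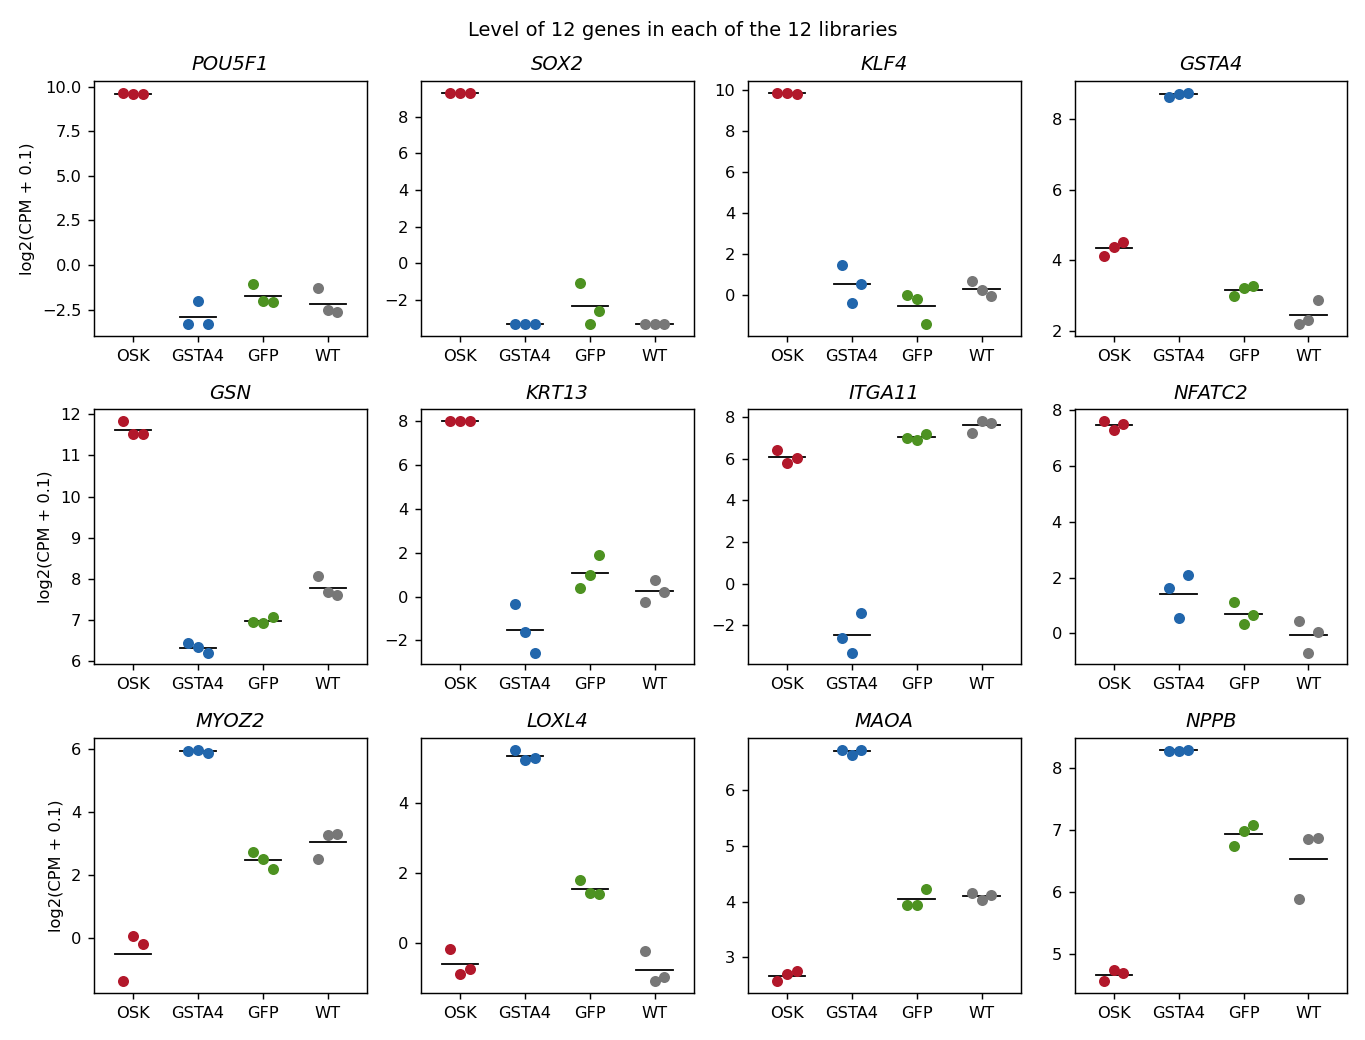
Log2(CPM + 0.1) of 12 genes in each of the 12 libraries (vertical axis, with a scale of its own per gene); points are libraries and the bar is the mean of the 3. OSK and GSTA4 libraries do not overlap for any of the 12. Apart from the forced genes, this follows from the rule for naming them, which asks for no overlap. Of all genes tested, 58% did not overlap. ITGA11 is near 0 in GSTA4 alone, whereas NPPB is above GFP in GSTA4 and below it in OSK.

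Beside the forced factors, the 12 largest rises at a mean of at least 10 CPM included genes that GFP and WT hardly expressed. KRT13, a keratin of stratified epithelia, was at 255, 256 and 257 CPM in OSK on 3583, 4037 and 3649 reads, and had 11, 3 and 1 reads in GSTA4 (log2 fold change 9.5, SE 0.23, adjusted p = 1.04e-17); GFP and WT averaged 2.23 and 1.14 CPM. NFATC2, a calcium-activated transcription factor, was at 197, 157 and 183 against 2.99, 1.35 and 4.2 CPM. ASS1, an enzyme of arginine synthesis, was at 22.7, 20.9 and 22.7 CPM in OSK and 1, 2 and 1 reads in GSTA4, and GALNT15, which starts O-linked sugar chains, at 27.9, 28.2 and 31.8 CPM and 3, 2 and 3 reads. In both genes the GSTA4 libraries were at or under 3 reads each. The noncoding RNA LINC00707 was at 21.7, 29.7 and 28.9 CPM in OSK and had 2, 6 and 1 reads in GSTA4.

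UNC5B-AS1 was at 477, 514 and 437 CPM in OSK and 0.635, 1.2 and 0.688 CPM in GSTA4. It is annotated antisense to UNC5B, a netrin receptor, which was at 739.8, 765 and 709.6 against 184, 192 and 191 CPM; as the strand setting of the counts is not given in the sources used here, reads of the pair cannot be told apart. GSN, gelsolin, which severs actin filaments, had the largest rise in CPM of all: 3646, 2934 and 2931 CPM in OSK and 87.2, 81.1 and 73.6 CPM in GSTA4 (log2 fold change 5.3, SE 0.12), with GFP at 124, 122 and 135 CPM. AMTN, an enamel protein, resembled ITGA11 in that GFP and WT were above both lines, at 118 and 177 CPM, against 60.7, 53.4 and 56.9 in OSK and 1.46, 1.35 and 1.24 in GSTA4. The other large rises in CPM were EFEMP1, a fibulin of the RPE matrix, at 3106, 3256 and 3709.9 against 666, 749 and 799 CPM, the glucose transporter SLC2A1, at 3632, 3066 and 2999.8 against 758, 669.9 and 619, agrin (AGRN), at 4067, 4319 and 4227 against 1852, 1692 and 1674, the lysosomal precursor PSAP, at 6688, 6439 and 6841 against 4285, 4526 and 4338, and the endocytic receptor LRP1, at 3576, 3295 and 3305 against 1769, 1664 and 1777.

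The 12 largest falls at a mean of at least 10 CPM were led by MYOZ2. This gene, for a protein of the muscle Z-disc, was at 0.285, 0.95 and 0.774 CPM in OSK and 61.2, 62.5 and 57.7 CPM in GSTA4 (log2 fold change -6.46, SE 0.24, adjusted p = 5.03e-15), with GFP at 5.49 CPM. NPPB, the B-type natriuretic peptide, was at 23.5, 26.6 and 25.7 against 309, 309 and 314 CPM, and AKAP6, which anchors protein kinase A at the nuclear envelope, at 6.47, 9.88 and 9.85 against 109.6, 116 and 123 CPM. The means of GFP and of WT lay between the lines for these 3. For AKAP6 the controls differed, at 57.6 CPM in GFP and 15.7 CPM in WT. LOXL4, a relative of LOX, was at 0.783, 0.443 and 0.492 CPM in OSK and 45.7, 37 and 38.9 CPM in GSTA4, the direction opposite to that of LOX. GPC3, a glypican, was at 2.13, 2.34 and 2.88 against 53.2, 49.1 and 52.2 CPM, and OSR1, a transcription factor of early mesoderm, at 1.85, 2.66 and 3.17 against 29.4, 32.9 and 39 CPM. MAOA, the oxidase of serotonin and noradrenaline, was at 5.83, 6.39 and 6.61 against 106, 99.4 and 106 CPM, with GFP at 16.4 CPM.

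CCDC141 differed from these in its control level: it was at 1.49, 1.84 and 1.27 CPM in OSK and 26.4, 24.2 and 24.2 CPM in GSTA4, while GFP held 27.4, 20.6 and 21.7 CPM, so GSTA4 was near GFP and OSK far below. KIF26A, an atypical kinesin, was at 1.14, 0.696 and 1.41 against 29.6, 25.3 and 26.4 CPM. RGS7BP, which binds regulators of G protein signalling, was at 14.7, 12.7 and 15 against 139, 149.7 and 152 CPM. TMEFF2, a membrane protein, was at 12.5, 12.3 and 14.4 against 127, 128 and 133 CPM. Its mean was 48.1 CPM in GFP, between the lines, and 5.84 CPM in WT, below both. In all of the 12 falls the highest OSK library was below the lowest GSTA4 library, as the rule for naming them asks.

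The GSTA4 line was not the higher one across the glutathione system. Of 33 genes tested, 13 were higher in OSK and 8 lower (median 0.19). GLRX, a glutaredoxin that reduces glutathionylated proteins, was at 46.4, 56.7 and 58.1 CPM in OSK and 5.85, 6.83 and 6.6 CPM in GSTA4 (log2 fold change 3.07, SE 0.13), and GSR, which regenerates glutathione, at 147, 152 and 151 against 64.6, 71.8 and 73.8 CPM. The exporter of glutathione conjugates ABCC1 was at 719, 654 and 607 against 347, 339 and 346 CPM, and GLUL, glutamine synthetase, at 602, 592 and 591 against 302, 296 and 289 CPM. On the other side, GPX7, an endoplasmic reticulum peroxidase, had 1, 1 and 0 reads in OSK and 10, 17 and 22 in GSTA4. In the glutathione and heat shock lists alike, relatives with near-identical copies may share reads.

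Other enzymes that clear aldehydes had 6 of 24 higher and 6 lower, near the background in both directions (median 0.10). ALDH3A2, the dehydrogenase of fatty aldehydes, was lower in OSK, at 192, 202 and 207 against 372, 346 and 349 CPM, and so were ALDH9A1, at 99.5, 102 and 109 against 142, 149 and 146, and PTGR1, a reductase of lipid aldehydes, at 23.1, 22.2 and 26.2 against 39.3, 34.1 and 32. ALDH3B1 was higher, at 488, 595 and 581 against 289, 327 and 307 CPM. The list's highest log2 fold change, 3.45, belonged to another member. Past the threshold, 1 member was higher in OSK by a log2 of at least 1 and 0 were lower by as much. Targets of NRF2, the factor that responds to oxidants and electrophiles, had 13 of 25 higher and 4 lower in OSK (median 0.25). SLC7A11, the cystine importer, was at 8.82, 10.8 and 10.6 against 1.46, 1.2 and 1.72 CPM and NQO1, a quinone reductase, at 20.1, 23.8 and 22 against 8.32, 8.63 and 9.22, but TXNRD1, thioredoxin reductase, was lower in OSK at 562, 565 and 584 against 1244, 1257 and 1268 (log2 fold change -1.14, SE 0.057).

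Peroxidases, catalase and superoxide dismutases had 7 of 15 higher and 3 lower (median 0.13). The peroxiredoxins PRDX6, at 476, 460.2 and 469 against 169, 184 and 178 CPM, and PRDX5, at 240.3, 247 and 255 against 129, 140.4 and 121, were higher in OSK. SESN3, a sestrin that restrains mTORC1, was lower, at 9.68, 10.1 and 9.29 CPM in OSK and 61.4, 61 and 63.6 CPM in GSTA4 (log2 fold change -2.68, SE 0.093). GFP held 26.6 CPM of SESN3, between the lines.

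Most of the endogenous pluripotency network was at or near 0 reads in both lines. Of 30 genes, the forced factors left out, 6 passed the filter on low counts, and the other 24 had at most 10 reads summed over the 3 OSK libraries and at most 4 over the 3 GSTA4 libraries, with 15 at 0 reads in both. NANOG had 0 reads in OSK and 2 in GSTA4, and LIN28A 3 and 4. Of the 6 tested, PODXL, a surface sialomucin that many cell types carry, was higher in OSK at 106, 97 and 93.9 against 32.3, 34.1 and 40.2 CPM, both under GFP at 471 CPM. KLF5 was lower, at 70.2, 75.7 and 67.9 against 121, 107 and 112 CPM, as was KLF2, at 0.569, 0.886 and 1.2 against 3.43, 1.88 and 1.51, a call lost without GSTA4 replicate 1; DNMT3B, TRIM71 and TBX3 did not pass. Without GSTA4 replicate 1, 1 member rather than 2 was lower. Across the KLF family without KLF4, 4 of 13 were higher and 5 lower (median -0.26), with 3 lower without GSTA4 replicate 1. KLF3, a repressor that binds the same boxes as KLF4, was at 446, 428 and 417 CPM in OSK and 46.2, 49.2 and 52.3 CPM in GSTA4 (log2 fold change 3.13, SE 0.067, adjusted p = 1.52e-18), KLF9 at 321, 279 and 297 against 94.2, 93 and 97, and KLF11 was lower at 13.3, 12.1 and 11.2 against 29.2, 29.4 and 27.

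Genes of RPE identity and the visual cycle had 12 of 26 higher and 8 lower in OSK (median 0.35), and the median was below GFP in both lines (-0.47 and -0.36). A further 7 members, among them RPE65, STRA6, TTR and CRX, were too low to test. These had at most 22 reads summed over the OSK libraries and at most 5 over the GSTA4 libraries. LRAT, which esterifies retinol, was lower in OSK, at 1.49, 1.71 and 0.985 against 12.7, 15.9 and 14.4 CPM (log2 fold change -3.34, SE 0.25). EZR (ezrin), of apical microvilli, was higher at 972, 1044 and 994 against 613, 561 and 559.6 CPM, ITGAV, an integrin chain used in outer segment uptake, at 948, 951 and 1019 against 573, 568 and 588, and the lactate transporter SLC16A1 at 227, 223 and 232 against 147, 151 and 149. Melanin enzymes were among those higher in OSK: TYRP1 at 135, 155 and 138 against 36.8, 46.6 and 55.9 CPM and TYR at 30.7, 34.6 and 35.9 against 10.9, 12.8 and 12.1 CPM, with GFP means above both lines at 200.3 and 66 CPM. Eye field and neural factors had 2 of 9 higher and 2 lower. MITF, the pigment cell regulator, was lower in OSK at 144, 141 and 152 against 170.4, 199 and 189.8 CPM, OTX2, a homeobox gene of RPE, higher at 163, 163 and 156 against 127, 138 and 128, and NOTCH1 lower at 20.1, 19.8 and 24.1 against 60, 59.3 and 69.

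Of the keratins, 6 of 11 tested were higher and 5 lower in OSK. KRT34 was at 102, 126 and 122 against 6.54, 4.5 and 7.16 CPM and KRT80 at 729, 788 and 764 against 386, 369 and 364 CPM, while KRT16 had 19, 50 and 32 reads in OSK and 0 in each GSTA4 library, at least 10.9-fold higher against the floor. The RPE keratins KRT8, at 543, 478 and 483 against 692, 668 and 676 CPM, and KRT18, at 247, 219 and 218 against 304, 287 and 286 CPM, were lower in OSK. KRT23 was the keratin that moved most against the majority, with 0, 1 and 0 reads in OSK and 5, 9 and 16 in GSTA4. Tight junction genes and cadherins had 7 of 26 higher and 10 lower (median 0.16). CDH2 (N-cadherin) was lower at 139, 128 and 140.1 against 272, 256 and 257 CPM, ZEB2, a repressor of epithelial genes, lower at 83.5, 78.2 and 78 against 159, 164 and 172, F11R, a junctional adhesion molecule, higher at 88.5, 85.9 and 85.8 against 33.4, 42.8 and 41.5, and CDH11 higher at 351, 320.3 and 404 against 196, 197 and 206. Endothelial markers summed to 23.7 to 26.6 CPM in OSK and 36.5 to 38.7 in GSTA4, nearly all of it KDR (24.5, 23.8 and 21.7 against 38.2, 37.7 and 35.7 CPM); VWF, von Willebrand factor, went the other way, at 1.64, 2.72 and 1.76 against 0.508, 0.525 and 0.344 CPM (log2 fold change 2.14, SE 0.57), while PECAM1 had 1 read in each line and CDH5 had 0. Markers of photoreceptors and neurons summed to 6.4 to 7.04 CPM in OSK and 8.26 to 10.2 in GSTA4. The part of these markers in the results was not tested.

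Glycolysis and hypoxia genes had 16 of 35 higher and 6 lower in OSK (median 0.27). LDHA, lactate dehydrogenase, was at 927, 835 and 748 CPM in OSK and 104, 111 and 109 CPM in GSTA4 (log2 fold change 2.95, SE 0.13), and CA9, a carbonic anhydrase of hypoxic cells, at 36.6, 54.4 and 41.7 against 5.02, 5.55 and 5.44 CPM. Of the glycolytic enzymes, ENO1 was at 1487, 1311 and 1316 against 1126, 1146 and 1104 CPM, and GAPDH, at 1274, 1235 and 1274 against 1313, 1460.0 and 1364, did not pass. ADM (adrenomedullin), also a hypoxia gene, was lower in OSK, at 13.9, 14.2 and 11.4 against 21.4, 21.1 and 22.2 CPM.

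Genes with a unique RefSeq position (14792) were placed in 261 windows of 10 megabases with at least 20 tested genes each (GRCh38.p14), to see whether neighbours moved together. The quartiles of the window medians were -0.08 and 0.06. The lowest was on chromosome 15 from 30000001 to 40000000, at -0.44 (41 genes, 4 higher and 20 lower in OSK), and next came chromosome 10 from 130000001 to 140000000, at -0.41 (22 genes, 1 higher and 8 lower). The neighbours of the first window on chromosome 15 followed, at -0.37 from 40000001 to 50000000 (98 genes, 15 higher and 46 lower) and -0.25 from 20000001 to 30000000 (26 genes, 3 higher and 13 lower). In the lowest window the median was -0.17 in OSK and 0.36 in GSTA4 against the shared GFP libraries. The highest was on chromosome 11 from 120000001 to 130000000, at 0.41 (54 genes, 24 higher and 7 lower), where the medians against GFP were -0.07 and -0.30. These are descriptions with no test, and the copy number of these regions was not measured.

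**Figure D5:**
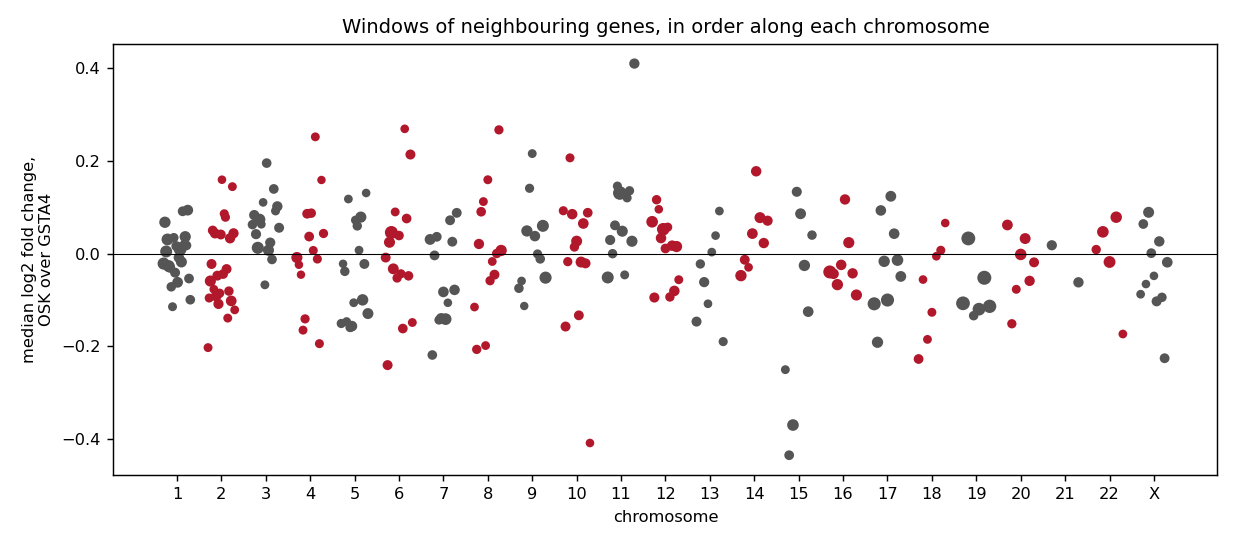
Median log2 fold change of OSK over GSTA4 for 261 windows of 10 megabases (vertical axis), in order along each chromosome (horizontal axis; colours alternate by chromosome and larger points hold more genes). The lowest points are on chromosome 15, at -0.44, chromosome 10, at -0.41, and chromosome 15 again, at -0.37; the highest is on chromosome 11, at 0.41.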

How the data were processed

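RNA-seq of 12 ARPE-19 libraries was used, 3 per group, grouped by their labels. The authors deposited raw read counts per gene; STAR 2.7.1a and featureCounts 1.6.2 are named in the submitters' processing notes. These notes list human and mouse genome builds without a role, and the annotation release and strand setting are not given in the sources used here. Lines of the table without a gene name (0.485 to 0.822% of reads) were left out.

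All 12 libraries entered 1 fit in edgeR 4.0.16 (limma 3.58.1, R 4.3.3) with TMM scaling, the filterByExpr filter and the quasi-likelihood test of OSK against GSTA4. P-values were adjusted by Benjamini-Hochberg over 15179 genes, with a threshold of 0.05. CPM values follow TMM scaling. SE is the log2 fold change divided by the root of F. No pair of libraries of a group agreed within counting noise (chi-square per gene between replicates 2.50 to 16.7).

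The members and gene lists were chosen with earlier results of these data known. Named genes are the 4 forced genes, the 12 largest rises and falls by fold at a mean of at least 10 CPM without overlap, the 6 largest differences in CPM each way, and in each list the 4 members of lowest adjusted p and the one furthest against the majority; any others were chosen after their values were seen. Promoter sequences are from RefSeq (GRCh38.p14) and were found by symbol for 11265 of the genes tested. Alternatives were other scalings, filters, DESeq2 1.42.0, fewer libraries, a replicate block and a test against a log2 fold change of 1. A few genes that these rules name are not reported here. The scripts were tested on simulated data.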

Additional observations from a re-analysis of the deposited data

How the results depend on the processing

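Of 7262 genes past the threshold, 976 passed a test against a log2 fold change of 1 (626 higher, 350 lower in OSK, so 64.1% higher), all 976 among the 7262. Under the other settings run the total was 6452 to 7795. With library size alone as the scaling, 3156 genes were higher and 4277 lower, against 3655 and 3607 with TMM, and the median of all genes was -0.08. Of the list counts, 5 moved by more than 1.5 times. That of the mitochondrially encoded mRNAs did so in 8 of the 13 alternatives run for lists, and each of the others in 1. The number of mitochondrially encoded mRNAs lower in OSK (2) was 8 with library size alone, 4 with DESeq2, 6 with only the 6 libraries compared and 4 without GFP replicate 1, and 1 to 2 leaving out each OSK or GSTA4 replicate in turn. With only the 6 libraries compared, 10 aldehyde clearance genes were higher. Leaving out each replicate in turn (GFP replicate 1 included) gave 8 to 15 nuclear respiratory chain genes lower, 1 to 3 pluripotency genes lower and 3 to 4 KLF genes lower. The cause of these shifts was not tested. Of 200 named genes, 195 kept their call in all 14 alternatives, none reversed, and 5 lost it in some (CFD, EEF1A1, KLF2, MCM7 and MT-CO1).

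Same-numbered OSK and GSTA4 libraries deviated together weakly or not at all (r = 0.0751, -0.0116 and 0.0151 across genes). Differently numbered libraries gave r of -0.0536 to 0.0397. With 3 libraries per group, these values cannot settle whether the numbers pair the libraries. With the replicate number as a block, 7476 genes passed, of which 7221 were among the 7262, and not every library correlated best with its own number.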

Other observations

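Signalling genes outside the groups above differed by member between the lines. Of 14 genes of the Notch pathway, 7 were higher in OSK and 3 lower (median 0.15). The ligand JAG1 was at 235, 219 and 214 CPM in OSK and 33.2, 35.3 and 33.6 CPM in GSTA4, and the targets HES4, at 26.4, 32.4 and 31.5 against 9.4, 7.66 and 9.77 CPM, and HES1, at 16.9, 12.7 and 12.8 against 8.45, 8.48 and 6.88 CPM, were higher, while the receptor NOTCH1 was lower. Genes of BMP signalling had 7 of 18 higher and 5 lower (median 0.06), among them the target ID1, at 106, 113 and 112 against 45.1, 37.8 and 37.6 CPM, and the ligand BMP6, at 79.8, 71.8 and 65.2 against 18.7, 20.3 and 17.8 CPM. SMAD9 moved most against them, at 17.6, 24.9 and 21.2 against 38.1, 37.2 and 48.9 CPM. WNT genes had 6 of 20 higher and 8 lower (median -0.20): the receptor FZD8 was higher, at 50.5, 48.7 and 54.8 against 13.7, 14.7 and 13.4 CPM, and the secreted inhibitor SFRP4 lower, at 6.76, 8.1 and 6.96 against 20.8, 21.8 and 18.6 CPM.

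Genes of ATF4 and amino acid starvation were divided, with 11 of 27 higher and 9 lower in OSK (median -0.12). PHGDH, the first enzyme of serine synthesis, was at 87.9, 87.9 and 88.7 CPM in OSK and 26.1, 25.9 and 29.1 CPM in GSTA4, and the amino acid transporter SLC7A5 at 768, 739 and 661 against 303, 308 and 309 CPM. The stress factor ATF3 was lower, at 3.27, 4.49 and 4.92 against 14, 14.6 and 15.5 CPM, and so was STC2, a secreted glycoprotein, at 49.5, 46.7 and 44.9 against 103, 101 and 94.3 CPM. Lysosomal genes had 21 of 40 higher and 7 lower (median 0.19), with the protease CTSK at 111, 115 and 129 against 49.9, 54 and 52 CPM and CTSC lower at 29.6, 36 and 36.2 against 49.1, 48.9 and 45.5 CPM. Genes of lamins and heterochromatin had 8 of 24 higher and 6 lower. The nuclear envelope protein SUN2 was at 867, 784 and 744 against 163, 148 and 151 CPM (log2 fold change 2.38, SE 0.078, edgeR adjusted p = 1.10e-15), and the histone methyltransferase EHMT2 was lower at 56.7, 58.1 and 58.4 against 99.7, 90.5 and 91.4 CPM. In DNA methylation and demethylation, 5 of 17 were higher and 4 lower: the maintenance methyltransferase DNMT1 was at 116, 114 and 111 against 87.4, 75.7 and 73.9 CPM, and DNMT3A, which methylates DNA afresh, was lower at 33.4, 37 and 30.9 against 69.4, 59.1 and 63.1 CPM. The metallothionein list, which also holds MTF1 and SLC30A1, had 4 of 6 higher and 1 lower, with 6 further members too low to test. Of the metallothioneins, MT1X and MT2A were higher, with log2 fold changes of 2.15 to 2.83 and 0.615 to 0.740 over the alternatives. MT1F was lower, at -1.12 to -0.847. The transcription factor MTF1 was higher, at 0.294 to 0.392. So was the zinc exporter SLC30A1, at 106, 101 and 95.6 against 53.8, 48.6 and 47.2 CPM.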
